A study of Homo sapiens with 4 samples.

Results

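The 10 genes described here encode GFI1 and GFI1B, related zinc finger repressors of blood cells, and 8 proteins of the LSD1-CoREST corepressor that they recruit, namely KDM1A, RCOR1, RCOR3, HMG20B, PHF21A, ZMYM2, CTBP1 and CTBP2. They were chosen by name, out of 19970 protein-coding genes of the annotation, and every ZNF217 peak in the body of each gene or within 50 kb of either end was taken. That gave 72 of the 36356 peaks of MV4-11 and 30 of the 21737 peaks of U937 on chromosomes 1 to 22 and X. All 10 genes could be evaluated in both lines.

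The study examined ZNF217, a zinc finger transcription factor, as a regulator in acute myeloid leukemia (AML), and mapped its binding by CUT&Tag, in which an antibody directs a transposase to cut and tag the DNA near its target. MV4-11 is an AML line with a rearranged KMT2A gene, and U937 is a line of monocytic character with a PICALM fusion. Both are established cell lines and were untreated, both libraries were made with an antibody to ZNF217, and each line had 1 library, so that a difference between the lines could not be set against the spread of replicates and no p-value is given. The IgG libraries of both lines are not analysed here.

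The deposited lists gave the position of each peak on hg38 without height or read count, so the depth of the libraries is unknown. A peak was counted as a promoter peak of a gene when it reached into the 1 kb on either side of any transcription start site (TSS) of that gene, as a peak at the promoter of another gene when it did so only for a neighbour, and as distal otherwise. Sharing meant that a peak of the other line covered at least 1 bp of it. Over all peaks on these chromosomes the ratio of MV4-11 to U937 was 1.67 (95% interval 1.64 to 1.70), against which the counts of the members were read. Intervals cover counting error only, and a peak shows where ZNF217 was called on DNA, not whether a gene was transcribed.

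GFI1 and GFI1B bind DNA through zinc fingers at their C-terminal end and silence their targets through a short N-terminal stretch, the SNAG domain, which docks into the demethylase LSD1, the product of KDM1A. LSD1 removes methyl groups from histone H3 at enhancers and promoters, and the CoREST proteins, encoded by RCOR1 and its relatives, hold it on nucleosomes and join it to histone deacetylases. ZNF217 itself is known as a partner of LSD1, CoREST and CtBP, so these windows show where it sat at the genes of its own corepressor. In blood, GFI1 is required for neutrophil formation and restrains monocytic genes, GFI1B is required for red cells and platelets, and both are known to repress their own and each other's genes.

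The sequences that the results turn on follow, 5′ to 3′ on the strand of the gene named, in lower case. Capitals mark AAATCA, the core of the GFI1 and GFI1B recognition sequence, and CAGAA, the core of the ZNF217 recognition sequence, or their reverse complements TGATTT and TTCTG. Both strands were searched and matches may overlap. Promoter sequence is from RefSeq and the rest from the hg38 genome, and annotated untranslated sequence was left out of all but the 30-base sites. The first pair comes from GFI1, which had the widest promoter peaks of the 10 genes: 250 bases before its first TSS (chr1:92486926-92487175, minus strand) and 300 bases within its shared distal peak, across the end of the last intron and the start of the last coding exon (chr1:92476141-92476440, minus strand). The CAGAA marked in the distal stretch lies outside the central 300 bp of the peak in both lines.
GFI1 first promoter: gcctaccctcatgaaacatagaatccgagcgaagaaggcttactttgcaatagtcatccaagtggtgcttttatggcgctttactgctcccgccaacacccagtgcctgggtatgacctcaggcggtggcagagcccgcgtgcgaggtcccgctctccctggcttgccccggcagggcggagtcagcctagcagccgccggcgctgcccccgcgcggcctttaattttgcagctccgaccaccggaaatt
GFI1 last intron: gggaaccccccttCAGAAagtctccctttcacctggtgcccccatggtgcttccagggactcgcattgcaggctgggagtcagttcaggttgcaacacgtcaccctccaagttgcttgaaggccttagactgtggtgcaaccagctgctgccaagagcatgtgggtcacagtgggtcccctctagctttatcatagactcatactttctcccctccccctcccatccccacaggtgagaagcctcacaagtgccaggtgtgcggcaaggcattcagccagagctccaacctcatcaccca

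The next set shows GFI1B, where the peak of both lines and the GFI1 cores lay apart. The 164 bases lie under both peaks, where the 5′ parts of GFI1B and TSC1 overlap on opposite strands (chr9:132944379-132944542, plus strand). Both 30-base sites hold a GFI1 core in a RefSeq promoter window of GFI1B (chr9:132945349-132945378 and chr9:132978651-132978680, plus strand), and neither was under a peak in either line.
GFI1B and TSC1: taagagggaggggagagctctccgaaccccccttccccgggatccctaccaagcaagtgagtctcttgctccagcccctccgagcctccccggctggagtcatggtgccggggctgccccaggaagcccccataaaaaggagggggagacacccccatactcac
GFI1B upstream site: gagacagcttgaAAATCAGAAcgccttatt
GFI1B main start site: taatcagattgaAAATCAgggaggggaaca

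The last set comes from the corepressor genes. It gives the KDM1A promoter, partly under a peak in both lines (chr1:23019218-23019442, plus strand), and the distal sequence downstream of RCOR1 that both lines shared (chr14:102774822-102775097, plus strand). It also gives the part of the U937 peak within HMG20B that lies outside untranslated sequence (chr19:3573438-3573584, plus strand). The last is the CTBP2 promoter, under a peak in MV4-11 but not in U937 (chr10:125161062-125161280, minus strand). The GFI1 core occurred in none of these 4 sequences, and the ZNF217 core occurred once each in those of KDM1A, RCOR1 and HMG20B. The KDM1A peak began at 23019309 in MV4-11 and at 23019292 in U937. The CAGAA marked in the KDM1A sequence lies before both starts, outside the peak in each line.
KDM1A promoter: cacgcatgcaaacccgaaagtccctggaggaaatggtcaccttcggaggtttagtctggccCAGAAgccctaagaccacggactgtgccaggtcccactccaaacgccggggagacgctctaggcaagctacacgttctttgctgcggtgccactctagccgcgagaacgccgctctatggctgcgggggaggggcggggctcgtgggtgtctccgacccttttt
RCOR1 distal: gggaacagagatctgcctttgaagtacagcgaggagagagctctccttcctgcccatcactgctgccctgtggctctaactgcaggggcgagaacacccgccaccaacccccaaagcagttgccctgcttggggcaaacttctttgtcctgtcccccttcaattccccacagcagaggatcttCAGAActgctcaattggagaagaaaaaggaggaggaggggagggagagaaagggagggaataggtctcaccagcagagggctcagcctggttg
HMG20B internal: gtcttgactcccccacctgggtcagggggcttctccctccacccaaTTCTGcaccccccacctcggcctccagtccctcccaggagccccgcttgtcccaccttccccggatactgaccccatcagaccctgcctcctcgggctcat
CTBP2 first promoter: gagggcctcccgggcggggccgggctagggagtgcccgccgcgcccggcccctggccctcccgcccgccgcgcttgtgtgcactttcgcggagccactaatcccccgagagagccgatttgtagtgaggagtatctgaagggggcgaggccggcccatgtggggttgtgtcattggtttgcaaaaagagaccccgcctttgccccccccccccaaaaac

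ZNF217 was called at the promoter of all 10 genes in MV4-11 (exact interval 69.2 to 100%) and of 9 in U937 (55.5 to 99.7%). Over all protein-coding genes the shares were 59.0% in MV4-11 and 50.5% in U937. The same 9 genes were occupied in both lines, against 47.4% of all genes, and CTBP2 was occupied in MV4-11 alone, as were 11.6% of all genes. The members were picked with earlier results of these data known, and genes with many annotated TSSs have more sequence in which a promoter peak can fall, so the excess over the background is given as a description. With the MANE Select transcript alone (the representative transcript agreed by the annotation projects), the TSS was under a peak for 8 of 10 genes in MV4-11, against 49.3% of all genes, and for 7 of 10 in U937, against 39.2%. GFI1B and CTBP2 were the members without a peak at that TSS in either line, and HMG20B lacked one in U937.

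**Figure D1:**
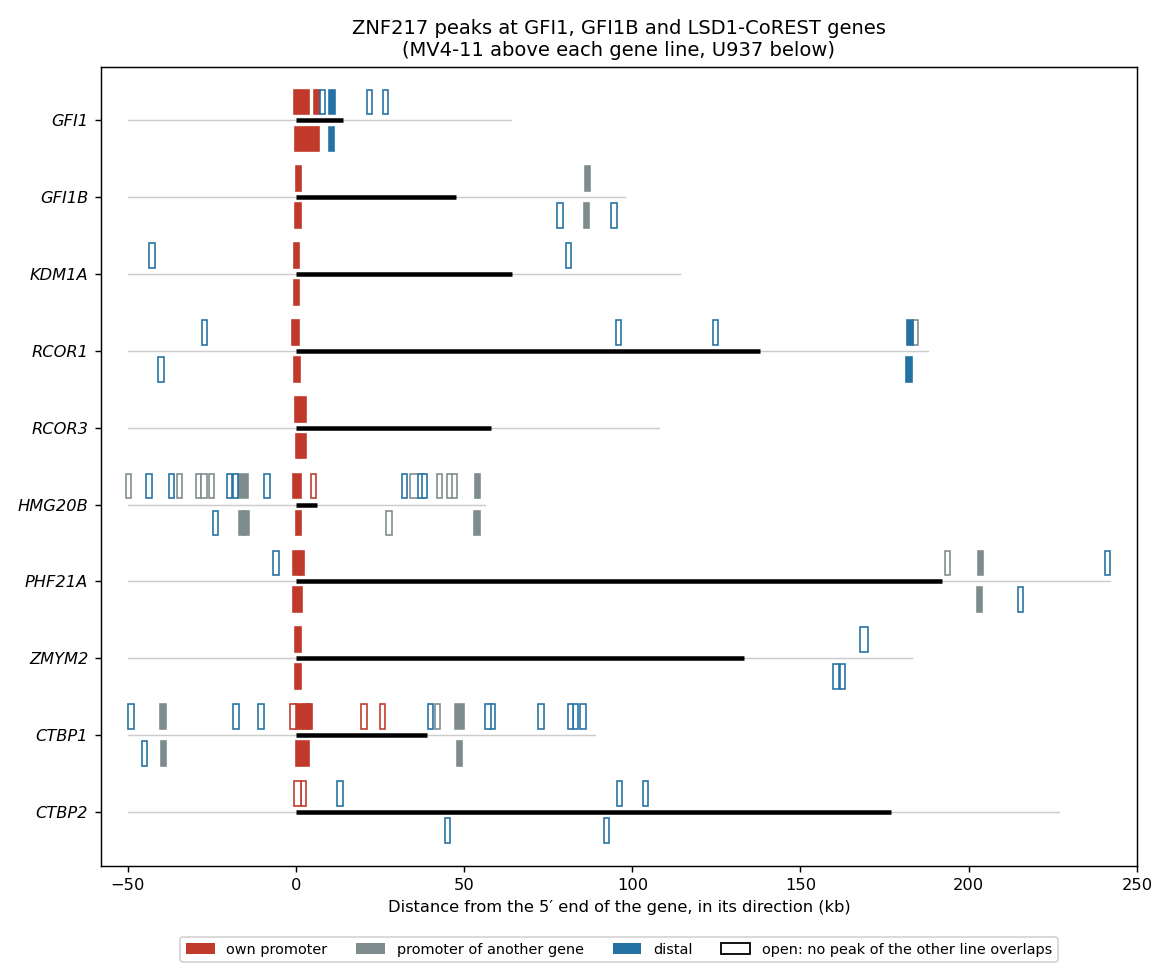
Positions of all 72 MV4-11 peaks (above each gene line) and 30 U937 peaks (below) relative to the 5′ end of each gene in kb. Thick lines are gene bodies, thin lines the 50 kb on each side, filled boxes shared peaks and open boxes peaks without a partner, and narrow peaks are drawn at a fixed minimum width. For 9 genes, promoter peaks (red) lie at or near the 5′ end in both lines, while the distal peaks (blue) are mostly open. Some MV4-11 promoter peaks lie at starts farther inside the gene, as at CTBP1 (20.3 kb and 25.7 kb from the 5′ end).

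GFI1 stood out for the length of its promoter under ZNF217. In MV4-11, a peak of 4251 bp covered its 5′ end (chr1:92483120-92487371) and a second of 1615 bp lay inside the gene (chr1:92479808-92481423), 1697 bp from the first. In U937, 1 peak of 7075 bp ran over nearly the same ground (chr1:92480125-92487200). The MV4-11 pair, end to end, spanned 7563 bp, and 5378 bp were common to both lines, which is 91.7% of the MV4-11 promoter peak length and 76.0% of that of U937. Of the 14637 promoter peaks in MV4-11, 117 were wider than the 4251 bp peak, and of the 10647 in U937, 1 was wider than the GFI1 peak. All 7 annotated TSSs of GFI1 were under a peak in both lines, so every annotated start of the gene lay under a call.

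Beyond its promoter, GFI1 had 4 distal peaks in MV4-11 and 1 in U937. The U937 peak (559 bp) lay wholly within one of the MV4-11 peaks (698 bp), 10.7 kb from the 5′ end, at the junction of the last intron and the last coding exon printed above. The other 3 MV4-11 peaks had no U937 partner. One, of 634 bp, was intronic, and the others, of 748 bp and 1000 bp, were intergenic, 21.9 kb and 26.5 kb from the 5′ end and beyond the 3′ end of the gene. In the plot of peaks and start sites, GFI1 is the gene whose TSSs are all covered.

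GFI1B had 1 promoter peak in each line, 890 bp in MV4-11 (chr9:132944378-132945268) and 625 bp in U937 (chr9:132944267-132944892), with 514 bp in common. Neither peak covered any of the 8 TSSs of GFI1B. Both were promoter peaks by distance alone, to the far upstream TSSs of the gene, and both sat on TSC1, which encodes a subunit of the complex that restrains mTOR and runs in the opposite direction from here: 18 of its 28 TSSs, the MANE Select one included, were under each peak. The promoter of GFI1B and that of TSC1 cannot be told apart in this stretch. The MANE Select TSS of GFI1B, within the gene, was 33.4 kb from the nearest MV4-11 peak and 33.8 kb from the nearest U937 peak, so neither line had a call at the start of the main transcript. GTF3C5, a neighbour that encodes a subunit of an RNA polymerase III factor, had a shared promoter peak in the window (844 bp in MV4-11, 1126 bp in U937). No distal peak was called in MV4-11, whereas U937 had 2 (522 bp and 658 bp), both downstream of GFI1B and without a partner.

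**Figure D2:**
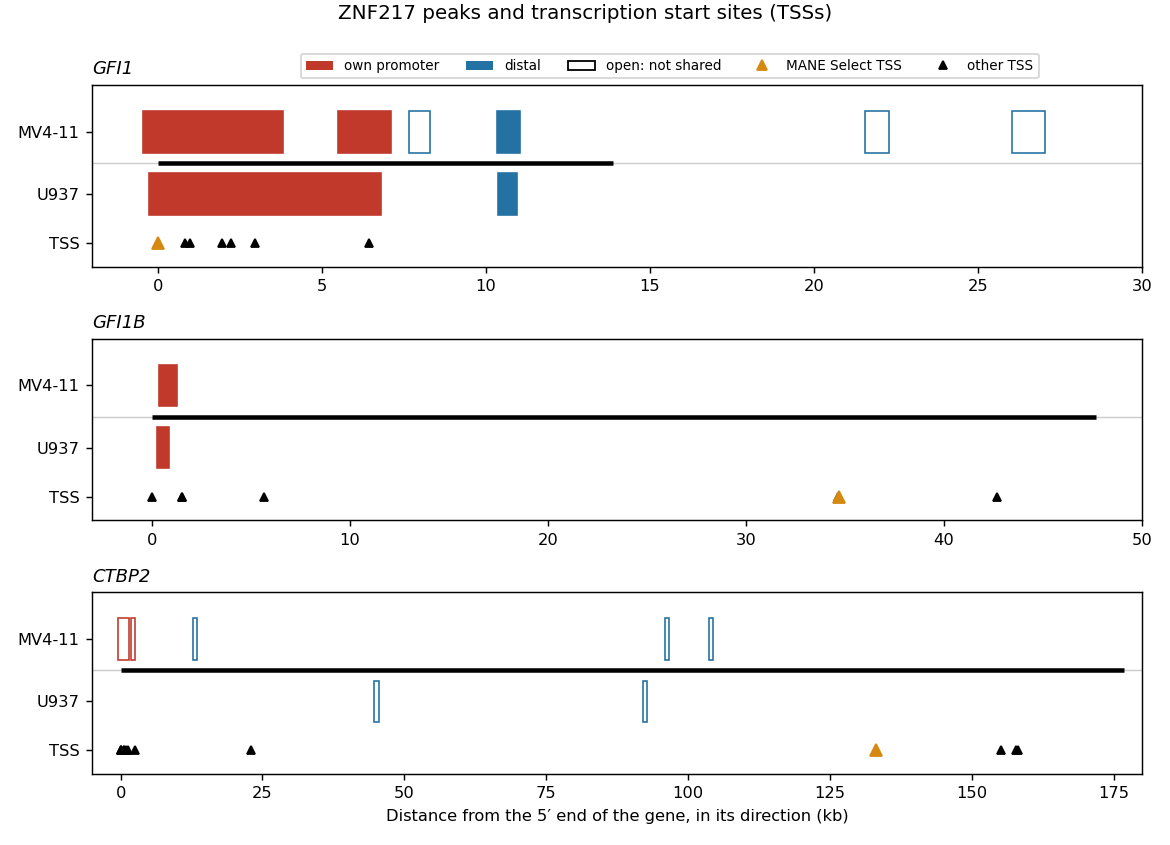
ZNF217 peaks (boxes, to scale on the kb axis except the narrowest) and annotated TSSs (triangles, the MANE Select TSS in orange) at GFI1, GFI1B and CTBP2, by distance from the 5′ end of each gene. Peaks cover all 7 TSSs of GFI1 in both lines, none of the 8 of GFI1B in either, and, at CTBP2, 8 of 14 in MV4-11 and 0 in U937.

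KDM1A, the gene of the demethylase LSD1, carried 1 promoter peak in each line. It measured 539 bp in MV4-11 (chr1:23019309-23019848) and 796 bp in U937 (chr1:23019292-23020088). The MV4-11 peak lay wholly inside that of U937 and filled 67.7% of it, and 3 of 13 TSSs, the MANE Select one among them, were under each. Of all promoter peaks, 24.2% were narrower than the KDM1A peak in MV4-11 and 44.2% in U937. The peaks also reached within 1 kb of a TSS of TEX46, a neighbour on the other strand. Of distal peaks, MV4-11 had 2, an intergenic one of 491 bp upstream and one of 543 bp in an intron of LUZP1, and U937 had 0.

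RCOR1, which encodes CoREST itself, had a promoter peak of 2166 bp in MV4-11 (chr14:102591504-102593670) and of 1733 bp in U937 (chr14:102592041-102593774). The common 1629 bp made up 75.2% of the MV4-11 peak and 94.0% of that of U937, and the MANE Select TSS was under both. RCOR1 had 4 distal peaks in MV4-11, 2 of them intronic, and 2 in U937. A pair of these overlapped by 276 bp, 763 bp wide in MV4-11 and 336 bp in U937, some 182 kb from the 5′ end and close to TRAF3, an adaptor of TNF receptor signalling. Since the next gene began there, the pair counted toward RCOR1 by the window and not by the nearest TSS. MV4-11 alone also had a peak of 677 bp at the TRAF3 promoter.

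RCOR3, a CoREST relative that also binds LSD1, had nearly the same promoter call in both lines. Its promoter peaks were 1380 bp and 759 bp wide in MV4-11 and 1423 bp and 738 bp wide in U937. The common 2037 bp covered 95.2% of the MV4-11 length and 94.3% of the U937 length. The peaks covered 8 of 16 TSSs in MV4-11 and 7 in U937, and no distal peak was called in either line.

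HMG20B encodes an HMG-box protein (BRAF35) of the complex, and its promoter differed most between the lines among the 9 shared genes. MV4-11 had a peak of 2431 bp over the 5′ end (chr19:3571906-3574337) and one of 321 bp within the gene, against 1 peak of 356 bp in U937 (chr19:3573437-3573793). The U937 peak lay wholly within the wide MV4-11 peak, and the summed promoter peak length was 7.73 times greater in MV4-11, where the 95th percentile of all genes occupied in both lines was 3.45. In MV4-11, 9 of 15 TSSs were covered, the MANE Select one included, and in U937 only 1 was. The U937 peak was centred 1 bp from a TSS of MFSD12, a lysosomal transporter gene on the other strand, and stood 0.494 kb from the MANE Select TSS of HMG20B, so it belongs to both promoters. It was among the narrowest calls of that library, with 2.82% of U937 promoter peaks narrower.

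The HMG20B window, in a gene-dense stretch of chromosome 19 with 6 other protein-coding genes, also held the most peaks. There were 11 peaks at promoters of other genes in MV4-11 and 4 in U937, at FZR1, TEKTIP1, MFSD12, TBXA2R and CACTIN. Distal peaks numbered 8 in MV4-11 and 1 in U937, and none was shared. Each of the 8 MV4-11 distal peaks lay nearer to a TSS of a neighbour than to one of HMG20B.

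PHF21A encodes BHC80, a reader of unmethylated histone H3 in the complex. Its promoter peaks were 555 bp and 1815 bp in MV4-11, on either side of a gap, and 2768 bp in U937 (chr11:46119538-46122306). The common 2252 bp made up 95.02% of the MV4-11 length and 81.4% of the U937 length, and 20 of 33 TSSs were under a peak in each line, so the starts covered were equal in number although the call was split in MV4-11. Distal peaks numbered 2 in MV4-11 (669 bp in an intron of CRY2 and 427 bp upstream of PHF21A) and 1 in U937 (535 bp in MAPK8IP1), with none shared. The promoter of PEX16, a peroxisome biogenesis gene, was occupied in both (758 bp in MV4-11, 1173 bp in U937), and that of LARGE2 in MV4-11 alone (591 bp).

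ZMYM2 encodes a MYM-type zinc finger protein of the complex that is known as a fusion partner of FGFR1 in myeloid neoplasms. Its promoter peak was 2035 bp in MV4-11 (chr13:19958272-19960307) and 1951 bp in U937 (chr13:19958356-19960307). The U937 peak lay wholly within that of MV4-11, with the same end position, and 5 of 11 TSSs were under each. Far downstream, 161 kb to 169 kb from the 5′ end, each line had distal peaks, at different places. MV4-11 had 1 of 2408 bp, wider than 98.8% of distal peaks in that library, and U937 had 2, of 1098 bp and 372 bp.

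CTBP1 and CTBP2 encode the C-terminal binding proteins, dehydrogenase-like corepressors that bridge DNA-binding factors to LSD1. CTBP1 had 6 promoter peaks in MV4-11, between 324 bp and 2432 bp wide, and 1 of 3795 bp in U937 (chr4:1246503-1250298), than which 34 of the U937 promoter peaks were wider. The U937 peak overlapped 3 of the 6, and the common 2833 bp were 58.7% of the MV4-11 length and 74.7% of that of U937. Of 22 TSSs, 11 were under a peak in MV4-11 and 8 in U937, the MANE Select one in both. As at GFI1 and PHF21A, one long call in U937 thus faced several shorter ones in MV4-11.

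Around CTBP1, 10 distal peaks were called in MV4-11, the widest of 1757 bp and 1633 bp, and 1 of 616 bp in U937, with none shared. Of the 10, 2 were nearer to a TSS of CTBP1 than to that of another gene. The promoters of SPON2 (2706 bp in MV4-11, 1608 bp in U937) and of MAEA, which encodes an erythroblast-macrophage attachment protein (770 bp in MV4-11, 643 bp in U937), were shared, and MV4-11 had a further SPON2 promoter peak of 953 bp.

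CTBP2, which also encodes the ribbon synapse protein RIBEYE from an internal promoter, was the member occupied in MV4-11 alone. It had promoter peaks of 2003 bp (chr10:125159680-125161683) and 677 bp (chr10:125158643-125159320) in MV4-11, over 8 of its 14 TSSs, and none in U937, where the nearest peak to the 5′ end was 44.9 kb away. Within the body of the gene, MV4-11 had 3 intronic distal peaks (463 bp, 652 bp and 526 bp) and U937 had 2 (442 bp and 372 bp), so the gene was not free of calls in U937, but none overlapped between the lines. The MANE Select TSS, deep in the gene, was 28.9 kb from the nearest MV4-11 peak and 40.5 kb from the nearest U937 peak.

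**Figure D3:**
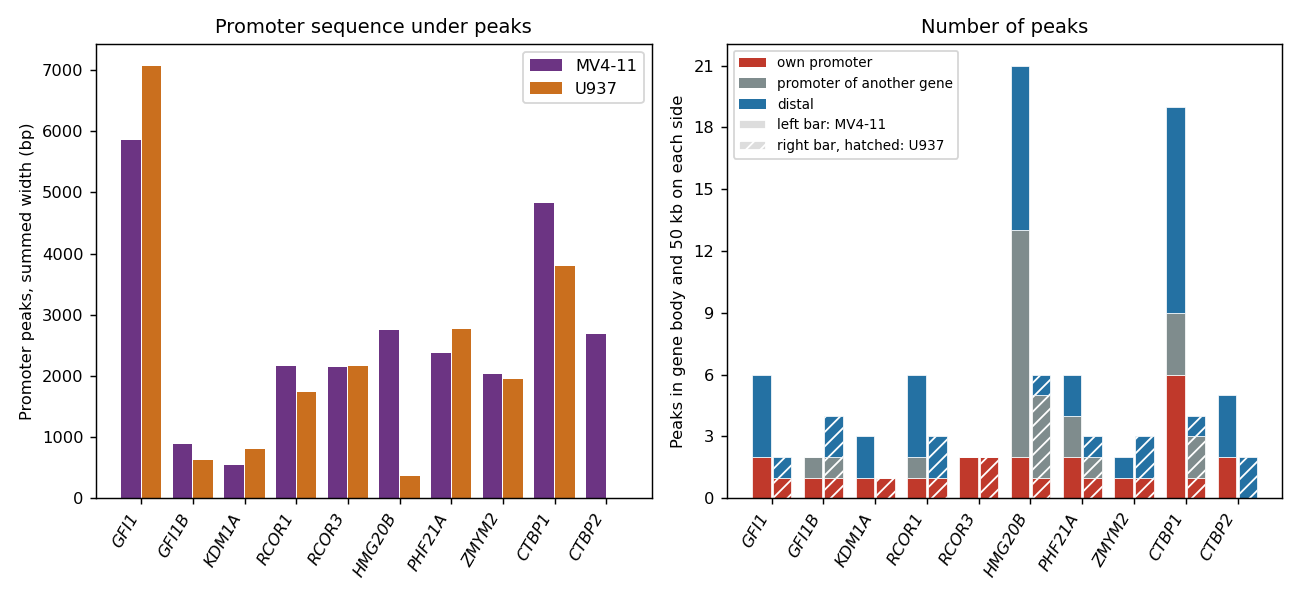
Left, summed width of the promoter peaks of each gene in bp. Right, number of peaks in the gene body and 50 kb on each side by class. In both panels the left bar of each pair is MV4-11 and the right bar U937. GFI1 has the longest promoter call in both lines (5866 bp in MV4-11, 7075 bp in U937), HMG20B and CTBP2 are short or empty in U937, and HMG20B and CTBP1 hold most MV4-11 peaks.

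Set side by side, the promoter calls of the 9 genes occupied in both lines were of like length at the median, but not at every gene. The MV4-11 to U937 ratio of summed width had a median of 1.04 and ranged from 0.677 at KDM1A to 7.73 at HMG20B, with 5 of the 9 above 1. Over the 9472 genes occupied in both lines, the median ratio was 1.19, the quartiles were 0.919 and 1.67, and 67.5% of genes were above 1. In all, MV4-11 had 20 promoter peaks at the 10 genes and U937 had 10, a ratio of 2 (0.894 to 4.78), while over all promoter peaks it was 1.37 (1.34 to 1.41). In MV4-11, 14 of the 20 were shared, 70.0% (48.1 to 85.5%), against 62.6% of all promoter peaks, and in U937 10 of 10 were (72.2 to 100%), against 87.0%. Both backgrounds fell within the intervals of the members.

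Distal peaks numbered 34 in MV4-11 and 12 in U937, a ratio of 2.83 (1.43 to 6.01), against 1.96 (1.914 to 2.004) over all distal peaks, which lay within the interval of the members. With lists of equal length the 34 became 19. In each line 8 of the 10 genes had at least 1, against 61.7% of all genes in MV4-11 and 48.2% in U937. Only 2 peaks of each line were shared, those in GFI1 and downstream of RCOR1. That was 5.88% (1.63 to 19.1%) of the distal peaks in MV4-11, against 25.4% over all distal peaks, and 16.7% (4.70 to 44.8%) of those in U937, against 50.9%. The 2 genes with a shared distal peak compare with 31.8% of all genes.

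Of the distal peaks, the windows of HMG20B and CTBP1 had 18 in MV4-11 and 2 in U937, a ratio of 9 (2.15 to 79.98), with none shared. The 8 other genes had 16 in MV4-11 and 10 in U937, a ratio of 1.6 (0.683 to 3.94). Without HMG20B and CTBP1, a split chosen after the values were seen, 12.5% (3.50 to 36.0%) of the MV4-11 distal peaks and 20% (5.67 to 51.0%) of the U937 distal peaks were shared. Both shares were still below those of all distal peaks, 25.4% in MV4-11 and 50.9% in U937. The windows left out had no shared distal peak, so leaving them out could only raise the share. No conclusion is drawn from where these intervals end. Median width of the distal peaks was 552 bp in MV4-11 and 528.5 bp in U937, against 519 bp in MV4-11 and 546 bp in U937 over all distal peaks, so in width they were ordinary calls.

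**Figure D4:**
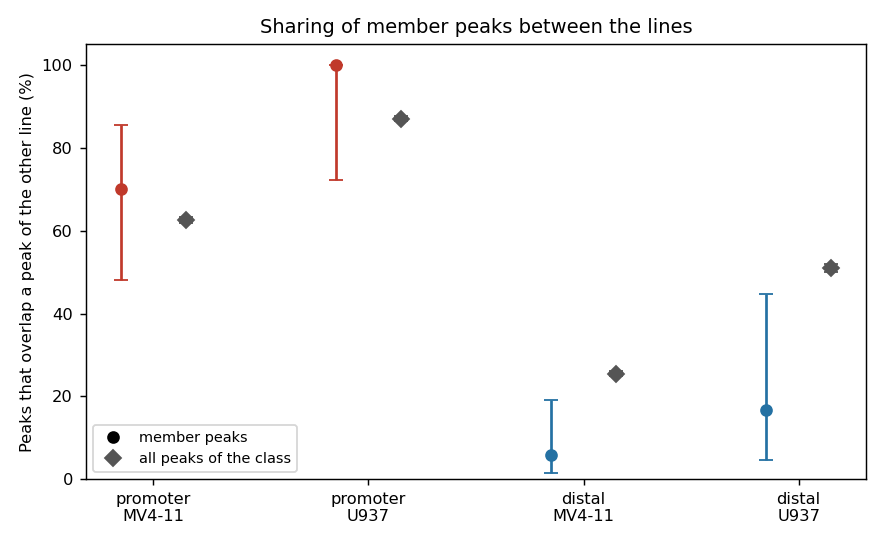
Share of promoter and distal peaks with an overlapping call in the other line, in percent, for the peaks of the 10 genes (circles, Wilson 95% intervals) and for all peaks of the class (diamonds). Promoter peaks of the members lie near the background (70.0% against 62.6% in MV4-11, 100% against 87.0% in U937), and distal peaks lie below it (5.88% against 25.4% in MV4-11, 16.7% against 50.9% in U937).

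Per length, the windows were close to the background when all classes of peak were counted. The median of the 10 windows was 1.94 peaks per 100 kb in MV4-11 and 1.28 in U937, against 1.96 in MV4-11 and 1.35 in U937 over all genes. HMG20B (19.8 peaks per 100 kb in MV4-11, 5.64 in U937) and CTBP1 (13.7 in MV4-11, 2.88 in U937) were the densest, and HMG20B in MV4-11 was above the 95th percentile of all genes, 15.7. For distal peaks alone the median was 1.15 per 100 kb in MV4-11 and 0.782 in U937, against 0.826 in MV4-11 and 0 in U937 over all genes, with 6 of the 10 members above the median of all genes in MV4-11 and 8 in U937.

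In sequence, the promoter peaks of these genes were rich in GC. The central 300 bp had a mean GC content of 69.3% in MV4-11 and 71.7% in U937, against 63.9% in MV4-11 and 64.4% in U937 over all promoter peaks. AAATCA was found in the central 300 bp of 0 of 20 promoter peaks in MV4-11 and 0 of 10 in U937, against 5.42% of all promoter peaks in MV4-11 and 5.54% in U937. In distal peaks it was found there in 1 of 34 in MV4-11 and 3 of 12 in U937, against 10.4% of all distal peaks in each line. Over whole distal peaks AAATCA was in 3 of 12 in U937 as well (25%), against 21.3% of all, so most of the difference in U937 was not seen there. In MV4-11 it was in 3 of 34 whole distal peaks (8.82%), against 20.5% of all. The 3 in U937 lay upstream of RCOR1, downstream of ZMYM2 and in MAEA beside CTBP1, and none was shared. CAGAA was in the central 300 bp of 4 of 20 promoter peaks in MV4-11 and 2 of 10 in U937, against 45.7% of all in MV4-11 and 44.7% in U937. It was found in 15 of 34 distal peaks in MV4-11 and 7 of 12 in U937, against 61.2% of all in MV4-11 and 58.1% in U937. Over whole distal peaks the share with CAGAA was 79.4% in MV4-11, against 79.5% of all, and 75% in U937, against 78.5% of all, so the difference in MV4-11 was not seen there. GGGCGG, a motif of the SP and KLF factors, was in 12 of 20 promoter peaks in MV4-11 and 7 of 10 in U937, against 53.9% of all in MV4-11 and 58.1% in U937. AT-rich words such as AAATCA are less likely to occur by composition in GC-rich sequence, and the part of base composition in these counts was not tested.

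Of the RefSeq promoter windows (250 bases before to 50 after a start), the 10 genes had 24. A peak overlapped 19 of them in MV4-11 (79.2%), against 49.9% of all windows, and 14 in U937 (58.3%), against 41.9%. The 14 windows occupied in both lines had a median GC content of 72.3%, and the 5 occupied in neither, which included both of GFI1B, had 47.3%, against 66% and 56% over all windows with the same occupancy. Of the 24, 2 held AAATCA, both of GFI1B and both without a peak, against 10.03% of all windows.

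Most other genes of the same machinery were occupied as well. Of 18 further genes of the LSD1-CoREST and CtBP complexes, 15 had a promoter peak in MV4-11 (83.3%, exact interval 58.6 to 96.4%) and 14 in U937 (77.8%, 52.4 to 93.6%), and the 14 were occupied in both. The shares of all genes, with any TSS counted in the same way, were 59.0% in MV4-11 and 50.5% in U937. With 1 TSS per gene the counts fell to 11 in MV4-11 and 9 in U937. No share of all genes is given for that setting, so those counts have no background here. The 14 occupied in both lines with any TSS counted included the histone deacetylase genes HDAC1 (widest promoter peak 1238 bp in MV4-11, 1318 bp in U937) and HDAC2 (1627 bp in MV4-11, 1745 bp in U937), and ZMYM3 (1712 bp in MV4-11, 1079 bp in U937). RCOR2, the remaining CoREST gene, was occupied in MV4-11 alone (3217 bp), and PHF21B, EHMT2 and ZEB1 in neither line.

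Most genes of other SNAG domain factors had no promoter peak. Of 10, 3 had a promoter peak in MV4-11 (30%, 6.67 to 65.2%) and 2 in U937 (20%, 2.52 to 55.6%). SNAI3 (2524 bp in MV4-11, 895 bp in U937) and SCRT2 (493 bp in MV4-11, 424 bp in U937) were occupied in both lines, SNAI1 in MV4-11 alone (1896 bp), and SNAI2, INSM1, INSM2 and SCRT1 were among the 7 without a peak in either. Both intervals contained the share of all genes, 59.0% in MV4-11 and 50.5% in U937, so the list was not set apart from the background.

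Of 20 genes known from the literature as targets of GFI1 or GFI1B, 19 had a promoter peak in MV4-11 (95%, 75.1 to 99.9%) and 15 in U937 (75%, 50.9 to 91.3%), and the 15 were occupied in both. Against 59.0% of all genes in MV4-11 and 50.5% in U937, the lower bound in U937 all but met the background. With 1 TSS per gene, 15 of the 20 were occupied in MV4-11 and 10 in U937. No share of all genes is given for that setting. Among the 15 occupied in both lines with any TSS counted were SPI1, which encodes the myeloid master factor PU.1 (widest promoter peak 1984 bp in MV4-11, 3263 bp in U937), the receptor gene CSF1R (671 bp in MV4-11, 2543 bp in U937), IRF8 (1411 bp in MV4-11, 601 bp in U937) and EGR1 (5133 bp in MV4-11, 2100 bp in U937). They are named because they came first in list order, so they do not characterise the 15. ELANE, CEBPA and GATA3 were among the 4 occupied in MV4-11 alone, and CSF1 in neither line.

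As a check of the cell type, promoters of marker genes were counted. Myeloid markers had a promoter peak for 7 of 9 genes in MV4-11 and 4 of 9 in U937, with LYZ and CSF3R at 0 in both. These shares, 77.8% (40.0 to 97.2%) in MV4-11 and 44.4% (13.7 to 78.8%) in U937, had intervals that contained those of all genes, 59.0% in MV4-11 and 50.5% in U937. In MV4-11, a promoter peak was called at 2 of 7 erythroid and megakaryocyte, 1 of 5 T cell, 3 of 5 B cell and 1 of 4 hepatocyte markers. In U937, B cell markers had 2 of 5 and the other 3 lists had 0. Occupancy is not expression, so these counts describe the libraries and do not establish the identity of the cells.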

How the data were processed

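ZNF217 CUT&Tag peaks of untreated MV4-11 and U937 cells (1 library each) were used, with groups taken from the sample titles. The authors, as their notes to GEO and the study's methods state, aligned reads to hg38 with Bowtie2 2.4.4 and called peaks per library with MACS3 3.0. Use of IgG as control, removal of duplicates and exclusion of blacklisted regions were not stated in the sources used here. The deposited values are of a unit other than signal: each line gives a peak as chromosome, start and end (in bp) and holds no score or count, so depth is unknown. Whether starts count from 0 or 1 was not stated, so peak positions, given as in the deposited lists, may be off by 1 bp, while sequence coordinates are 1-based.

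Genes, TSSs and MANE Select transcripts were from GENCODE 44, and promoter sequences were RefSeq windows on GRCh38. All 10 genes matched both. Chromosomes 1 to 22 and X were used. Python 3.11.15, NumPy 2.4.6, SciPy 1.17.1, Matplotlib 3.10.9, bedtools 2.31.1 and samtools 1.23.1 were used. Counts of shared peaks and of promoter peaks in each list were the same here and by bedtools. Simulated peaks placed around genes were recovered. Their expected class was set by the same code, so the simulation could not show peaks wrongly counted. Shares of peaks have Wilson intervals, shares of genes exact (Clopper-Pearson) intervals and ratios of counts exact conditional intervals, at 95%. For motifs, the middle 300 bp of every peak was read in both directions. Named genes were the 10 members, neighbours with promoter peaks in their windows and, from every further list, the first genes of each occupancy class (both lines, 1 line, neither), 4 at most. Some genes that this rule names are not reported here.

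The members and lists were chosen with earlier results of these data known. Alternatives were promoters of 500 bp or 3 kb, 1 TSS per gene, TSSs of all biotypes, the peak midpoint, peaks of at least 400 bp, merging within 500 bp, lists of equal length, flanks of 20 kb or 100 kb, the nearest TSS, a reciprocal overlap of 50%, overlap within 500 bp and the whole peak for motifs. The MANE Select TSS alone and the counts without HMG20B and CTBP1 were added after the data were seen.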

Additional observations from a re-analysis of the deposited data

How the results depend on the processing

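Of 150 alternative values for the totals, 111 were within 1.5 times the value given and 39 were not, 14 of them higher and 25 lower. A promoter peak was called at 8 to 10 members in MV4-11 and at 8 or 9 in U937 under every alternative run. Under 1 TSS per gene, promoter peaks in MV4-11 numbered 11 in place of 20 (9 with the MANE Select TSS alone), of which 9 were shared in place of 14, also 9 with a reciprocal overlap of 50%. Distal peaks in MV4-11 numbered 34, and 19 with promoters of 3 kb, with lists of equal length or with flanks of 20 kb, 53 with 1 TSS per gene, 14 when the nearest TSS had to be that of the member, and 16 without HMG20B and CTBP1. Those in U937 numbered 12, and 3 with flanks of 20 kb, 23 with flanks of 100 kb and 6 by nearest TSS. Shared distal peaks numbered 2 in each line, and 1 in each with promoters of 3 kb, peaks of at least 400 bp, flanks of 20 kb, TSSs of all biotypes, the nearest TSS or a reciprocal overlap of 50%, 6 in each with flanks of 100 kb, and, with 1 TSS per gene, 9 in MV4-11 and 6 in U937. The 14 further complex genes in U937 became 9 with 1 TSS per gene, and the 15 in MV4-11 became 11. With the same setting the target genes of GFI1 and GFI1B became 15 in MV4-11 in place of 19, and 10 in U937 in place of 15. The SNAG domain genes became 6 in MV4-11 and 4 in U937 with promoters of 3 kb, and 1 in U937 with promoters of 500 bp. Over whole peaks, AAATCA was in 3 promoter (15% against 20.5% of all) and 3 distal peaks (8.82% against 20.5%) in MV4-11. In U937 it was in 2 promoter (20% against 19.5%) and 3 distal peaks (25% against 21.3%). CAGAA was in 14 promoter (70% against 81.4%) and 27 distal peaks (79.4% against 79.5%) in MV4-11 and 7 promoter peaks in U937 (70% against 81.3%). For single members, 316 of 396 values were within 1.5 times the value given. The cause of these changes beyond the wider or narrower definitions was not tested. No paired analysis was possible because each line had 1 library and no result came from a test. With no read counts, the effect of depth on the number and length of peaks cannot be separated from a difference between the lines.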

Other observations

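Among the 23 pairs of overlapping MV4-11 and U937 peaks in the windows of the 10 genes, 3 (13.0%) had a start or an end at exactly the same base in both lines, against 622 of 15377 pairs (4.05%) over chromosomes 1 to 22 and X. They were the PHF21A promoter (start at 46119538 on chromosome 11), the ZMYM2 promoter (end at 19960307 on chromosome 13) and the CACTIN promoter in the HMG20B window (start at 3626014 on chromosome 19). The pairs were noticed after the positions were seen, and the lists give no reads with which to follow them up.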
